A study of Mus musculus with 23 samples.

Results

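The genes described here encode the nuclear subunits of the mitochondrial respiratory chain and of ATP synthase. They were chosen by name from the expression tables of mouse mammary cells: symbols starting with Nduf (without the Ndufaf assembly factors), Uqcr, Cox4 to Cox8 or Atp5, plus Sdha, Sdhb, Sdhc, Sdhd, Cyc1 and Cycs. This rule gave 87 genes of the 24918 symbols listed over 3 tables, and each of the 87 was listed in all 3. They comprise 36 genes of complex I, 4 of complex II, 9 of complex III, 1 of cytochrome c, 19 of complex IV and 15 of ATP synthase. The remaining 3 share a name with these subunits but are not part of the assembled complexes: Ndufa4l2, Atp5s and Atp5sl. The subunits encoded by mitochondrial DNA were not analysed here.

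Complexes I and II pass electrons from NADH and succinate to ubiquinone, complex III passes them to cytochrome c, and complex IV reduces oxygen. Complexes I, III and IV pump protons across the inner mitochondrial membrane, and ATP synthase uses the return flow to make ATP. Several complex IV subunits come in isoforms, one found in most tissues and another kept to muscle, testis or lung.

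The study measured RNA in 23 libraries of about 2000 sorted cells each, made with SmartSeq2, a full-length cDNA method that marks neither strand nor molecule. Normal C57BL6J glands gave 4 populations with 2 libraries each: the fetal mammary stem cell population (fMaSC), from E18 embryos, and adult basal, luminal progenitor and mature luminal cells. PY230 cells, a mouse mammary tumour line, were transplanted into syngeneic C57BL6J mice, and 3 populations were sorted from the tumours, 2 libraries of each. They were luminal SOX10 high cells, luminal SOX10 low cells and SOX10 high cells titled basal. The remaining libraries, titled basal, came from spontaneous tumours of FVB mice with C3-1-TAg, a transgene that drives SV40 T antigen in the mammary gland: 5 were SOX10 high, and SOX10 was low in 4. No group carries a deletion or a drug treatment. The PY230 groups all come from 1 cell line, and no source used here names the sorting markers. The series' design text calls the libraries biological replicates, but no label ties one to an animal or tumour.

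Values are RPKM, reads scaled to the gene's length and to the reads of the library, so levels can be set beside each other between genes of 1 table. The 3 tables (normal, PY230, C3-1-TAg) were made separately and are compared only within themselves. Sox10 lay between 66.9 and 101 RPKM in the 4 PY230 SOX10 high libraries against 11.01 and 13.6 in the SOX10 low ones. In C3-1-TAg cells it lay between 91.9 and 164 against 2.10 to 40.9, so the libraries followed their labels. Of 6 basal markers, all 6 were higher in adult basal cells than in luminal progenitors. All 6 luminal progenitor markers were lower in mature luminal cells than in luminal progenitors, and all 5 mature luminal markers were higher. The mature luminal markers summed to 815 and 1034 RPKM in adult basal cells, against 592 and 789 in luminal progenitors and 4878 and 5022 in mature luminal cells, and 0 of the 5 were called between basal cells and luminal progenitors. Each library had 10056 to 12504 genes at 1 RPKM or more, but absolute read depth is unknown. Among the C3-1-TAg libraries, 2 pairs were alike across the SOX10 groups and SOX10 low 1 stood apart in immune markers, as given with their results.

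Promoter sequences of the genes show which factor motifs they hold. The stretches below, taken from RefSeq promoters on GRCm38.p6 (the expression files used mm9), are shown because each has a motif of a factor known to act on respiratory genes. NRF1 is a principal activator of nuclear respiratory genes, CREB binds the CRE, YY1 binds near many start sites, and ERR is the motif of the estrogen-related receptors. All are 5′ to 3′ on the gene's own strand with the motif in capitals. Sdha is the flavoprotein of complex II, Atp5c1 the γ subunit of F1, Atp5k a small membrane subunit of ATP synthase, Cox6a1 the widely expressed subunit 6A of complex IV, Uqcrfs1 the Rieske iron-sulfur protein of complex III, Ndufa7 an accessory subunit of complex I and Atp5g3 a gene of the c ring.
Sdha, NRF1 motif, chr13:74350241-74350270, minus strand: cgacacccgcgcgactcggtGCGCAAGCGC
Atp5c1, NRF1 motif, chr2:10080433-10080469, minus strand: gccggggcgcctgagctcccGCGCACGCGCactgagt
Atp5k, NRF1 motif, chr5:108434420-108434469, minus strand: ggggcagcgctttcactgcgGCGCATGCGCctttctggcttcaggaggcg
Cox6a1, NRF1 motif, chr5:115349046-115349095, minus strand: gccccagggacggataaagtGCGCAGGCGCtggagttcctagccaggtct
Cycs, CRE, chr6:50566711-50566758, minus strand: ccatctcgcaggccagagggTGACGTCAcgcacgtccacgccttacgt
Uqcrfs1, CRE, chr13:30545318-30545365, minus strand: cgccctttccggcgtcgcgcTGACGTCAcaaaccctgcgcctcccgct
Ndufa7, YY1 motif, chr17:33824607-33824644, plus strand: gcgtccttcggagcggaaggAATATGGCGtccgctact
Atp5g3, ERR motif read on the other strand, chr2:73911350-73911398, minus strand: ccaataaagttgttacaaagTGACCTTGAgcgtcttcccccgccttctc

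Each window ran from 250 bases before to 50 after a start site, and RefSeq promoters matched 71 of the 87 genes, with 77 windows. Both strands were searched. The NRF1 motif, in capitals in the first 4 sequences with any base in its sixth place, was in 18 of the 77 windows (23.4%), against 9.72% of the windows of expressed genes and 4.60% of all windows. For the YY1 motif AANATGGCG the shares were 15.6%, 4.89% and 2.38%, and for the ERR motif TCAAGGTCA, found in 2 windows, 2.60%, 0.232% and 0.423%. The CRE TGACGTCA was in 6.49% of the windows of these genes and 3.09% of those of expressed genes. The ETS motif CCGGAAG (20.8% against 17.2%) and the E-box CACGTG (11.7% against 9.96%) were near the share of expressed genes, and the SP1 motif GGGGCGGG was below it (24.7% against 30.6%). The motifs were searched separately and may overlap. These shares describe letters in the windows and were not tested.

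The fetal cells held the highest levels. Summed over the 87 genes, RPKM made up 4.40% and 4.10% of the total in the 2 fMaSC libraries. The sums were 1.89% and 1.78% in adult basal cells, 1.63% and 1.61% in luminal progenitor cells, and 2.69% and 2.69% in mature luminal cells. The order was thus fetal, mature luminal, basal and luminal progenitor, and the libraries of no 2 populations overlapped. In a bulk library, fewer cells of a type and less RNA per cell cannot be told apart. In PY230 cells the sums ran from 2.35% to 3.16%, with both basal SOX10 high libraries (2.35% and 2.52%) below the 4 luminal ones. In C3-1-TAg cells the 5 SOX10 high libraries ran from 1.59% to 2.16% and the 4 SOX10 low ones from 1.54% to 1.99%, and the ranges overlapped.

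**Figure D1:**
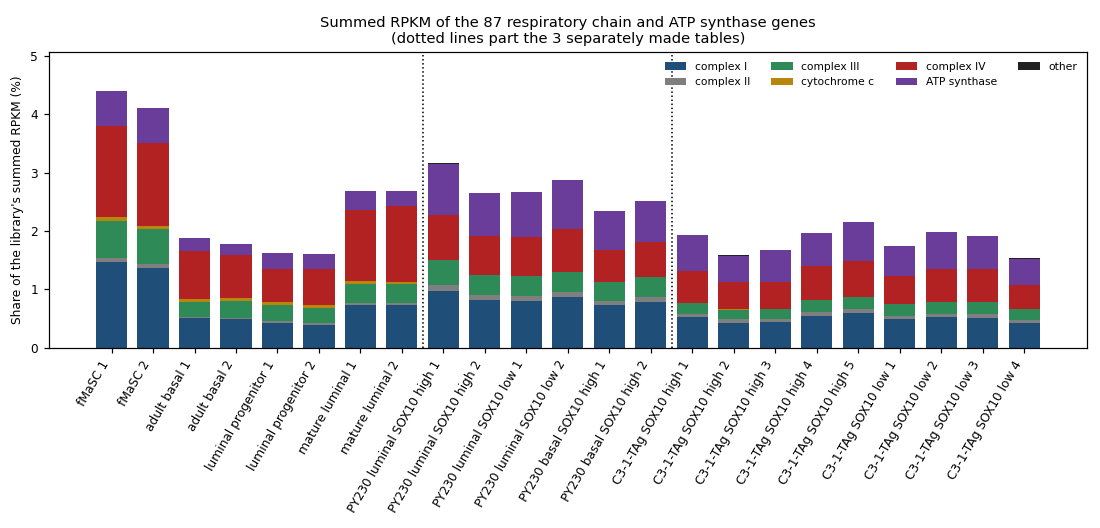
Share of each library's summed RPKM (y axis, percent) taken by the 87 genes, stacked by complex, for the 23 libraries (x axis), with dotted lines between the 3 tables. The fMaSC bars, at 4.40% and 4.10%, are the highest of the normal table, and the luminal progenitor bars, at 1.63% and 1.61%, the lowest.

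Genes of complexes I, II and III and of ATP synthase were higher in fetal than in adult normal cells, in each of the 3 adult populations. Complex IV genes were higher than in basal cells and luminal progenitors, but against mature luminal cells at about the rate of all genes. Differences were taken on log2(RPKM + 1), which understates the change of genes near 0, for the 84 genes that reached 1 RPKM in 2 or more libraries. Limma was fitted over all 12553 such genes, and a gene is called at a Benjamini-Hochberg adjusted p under 0.05. Against adult basal cells 74 of the 84 genes were higher in fMaSC and 1 was lower, where 36.9% of all genes tested were higher and 23.4% lower. Against luminal progenitors 78 were higher and 0 lower (all genes 35.5% and 15%), and against mature luminal cells 58 and 0 (41.7% and 14.7%). The median log2 fold changes of the 84 genes were 1.73, 1.75 and 1.07, beside 0.27, 0.39 and 0.53 over all genes tested. Quantile normalization brought these medians over all genes to 0.00, -0.02 and 0.02 and left the medians of the 84 at 1.56, 1.47 and 0.65. These 3 comparisons share the fMaSC libraries. Against mature luminal cells the split of the 84 genes was 44 higher and 3 lower with quantile normalization, and 42 and 4 with size factors. The shares of all genes were then 27.1% higher and 25.1% lower with quantile normalization, and 30.6% and 20.9% with size factors. Over all genes tested, those higher in fMaSC had shorter median longest transcripts than those lower. The medians were 2363 against 4452.5 bases (basal), 2693 against 3661 (luminal progenitor) and 2782.5 against 3602 (mature luminal). The respiratory chain and ATP synthase genes called higher had medians of 963, 891.5 and 1023.5 bases. The part of length was not tested. In either direction, 75, 78 and 58 genes were called (all genes 60.3%, 50.6% and 56.4%), and without fMaSC replicate 1 the counts were 63, 67 and 39.

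**Figure D2:**
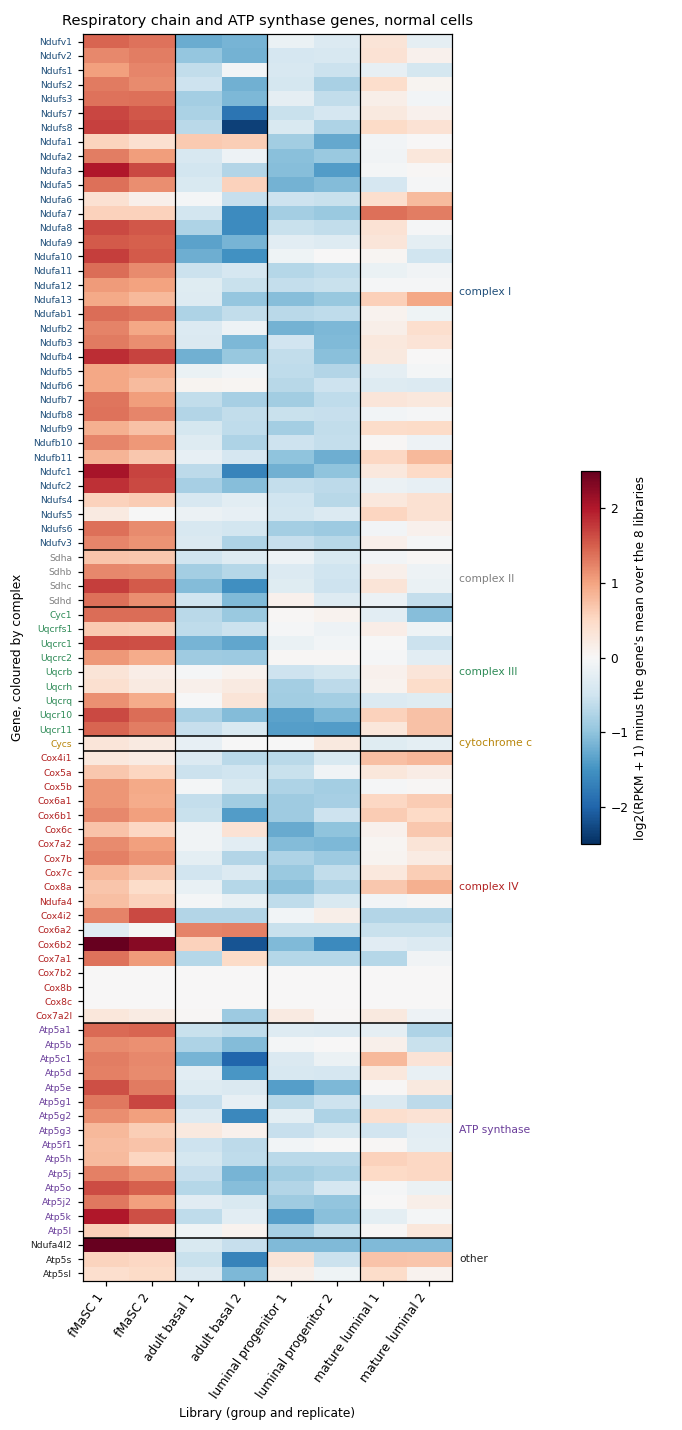
Heat map of the 87 genes (rows, grouped and coloured by complex) in the 8 normal libraries (columns). Colour gives log2(RPKM + 1) minus the gene's mean over the 8 libraries, and most rows are red in both fMaSC libraries, while Cox6a2 is red in the 2 adult basal ones, at 2.48 and 2.49 RPKM.

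Complex I takes electrons from NADH. All 7 nuclear genes of its catalytic core were higher in fMaSC than in either basal cells or luminal progenitors, and 6 of the 7 exceeded mature luminal cells. Ndufs8, a core subunit that holds iron-sulfur clusters, stood at 160.1 and 149 RPKM in fMaSC and at 30.1 and 8.74 in basal cells. In luminal progenitors it stood at 36.7 and 28.1, and in mature luminal cells at 68.1 and 62.6. The fetal libraries were above all 6 adult ones, and the basal pair differed between its libraries by more than any other. The log2 fold change was 3.16 ± 0.48 (SE) against basal cells (limma adjusted p = 0.00116) and 2.23 ± 0.48 against luminal progenitors (0.00676), while 1.23 ± 0.48 against mature luminal cells missed the threshold (0.0607).

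Ndufs1, the largest core subunit, stood at 170 and 194 RPKM in fMaSC and between 53.5 and 79.1 in the 6 adult libraries, so fetal and adult cells did not overlap. Its log2 fold changes were 1.47, 1.60 and 1.45 against basal, luminal progenitor and mature luminal cells (limma adjusted p = 0.00127, 0.00106 and 0.00138). Of the 29 accessory genes, 26, 28 and 21 were higher in the 3 comparisons. Ndufc1, a small membrane subunit, stood at 39.3 and 30.3 RPKM in fMaSC against 5.11 and 2.09 in basal cells and 3.18 and 3.80 in luminal progenitors, log2 fold changes of 3.03 and 2.99 (limma adjusted p = 0.000339 and 0.000417). Ndufa10 stood at 543 and 475 RPKM in fMaSC against 69.9 and 56.6 in basal cells (2.99 ± 0.23, limma adjusted p = 8.07e-05). Ndufa3 stood at 111 and 87.2 RPKM against 12.4 and 9.60 in luminal progenitors (3.06 ± 0.22, limma adjusted p = 5.83e-05). Ndufa1 did not follow its complex: it stood at 32.6 and 29.1 RPKM in fMaSC and 35.2 and 34.3 in basal cells, a log2 difference of -0.17 ± 0.20 (limma adjusted p = 0.499).

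Complex II oxidises succinate and is also an enzyme of the citric acid cycle. All 4 of its genes were higher in fMaSC in each of the 3 comparisons. Sdha, the flavoprotein, stood at 78.4 and 77.5 RPKM in fMaSC and between 33.9 and 49.1 in the 6 adult libraries, with no overlap. Sdhc, a membrane anchor, stood at 28.6 and 25.0 RPKM in fMaSC, 3.26 and 2.12 in basal cells, 6.24 and 5.30 in luminal progenitor cells and 10.3 and 7.03 in mature luminal cells. The log2 fold changes of Sdhc were 2.93, 2.04 and 1.54 (limma adjusted p = 0.000152, 0.00077 and 0.00223), and those of Sdha 1.09, 0.94 and 0.70 (0.00152, 0.00363 and 0.0111).

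Of the 9 complex III genes, 7, 9 and 7 were higher in fMaSC. Uqcrc1, a core protein that faces the matrix, stood at 490 and 484 RPKM in fMaSC, 69.5 and 63.1 in basal cells, 140 and 150 in luminal progenitor cells and 157 and 109 in mature luminal cells. It was higher by 2.86, 1.74 and 1.89 on the log2 scale (limma adjusted p = 7.19e-05, 0.00051 and 0.000282). Cyc1, the heme-bearing cytochrome c1, stood at 137 and 138 RPKM in fMaSC and between 24.3 and 54.6 in the 6 adult libraries. Its log2 fold changes were 2.20, 1.34 and 2.06 (limma adjusted p = 0.000464, 0.00509 and 0.00059). Uqcrh, the acidic hinge protein, stood at 472 and 423 RPKM in fMaSC and 390 and 422 in basal cells, a difference of 0.14 ± 0.20 that did not pass (limma adjusted p = 0.567).

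Cycs, the mobile electron carrier, varied less than its partners. It stood at 370 and 349 RPKM in fMaSC, 260 and 296 in basal cells, 298 and 353 in luminal progenitor cells and 244 and 252 in mature luminal cells. Fetal and luminal progenitor libraries overlapped, and the other adult libraries were below both fetal ones. The log2 differences were 0.37 and 0.15 against basal cells and luminal progenitors (limma adjusted p = 0.104 and 0.514), and 0.54 against mature luminal cells (0.0339).

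Complex IV, cytochrome c oxidase, had 13, 14 and 7 of its 16 tested genes higher in fMaSC. Of all genes tested, 36.9%, 35.5% and 41.7% were higher, so the count against mature luminal cells was near that rate. Of the 11 subunits present in most tissues, 10 and 11 were higher than in basal cells and luminal progenitors, and 4 than in mature luminal cells. Cox4i1 stood at 1330 and 1272 RPKM in fMaSC, 867 and 693 in basal cells, 686 and 848 in luminal progenitor cells and 1867 and 1948 in mature luminal cells. Here the mature luminal libraries were the highest of the 8, and the fetal value was lower by 0.55 on the log2 scale without passing the test (-0.55 ± 0.21, limma adjusted p = 0.059). Cox8a, the widely expressed isoform of subunit 8, stood at 1480.2 and 1257 RPKM in fMaSC and 1471 and 1710.0 in mature luminal cells, which overlapped, against 811 and 557 in basal cells and 444 and 535 in luminal progenitors. Cox7a2l, listed here as a supercomplex factor, was not called in any of the 3 comparisons (0.68, 0.12 and 0.18).

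ATP synthase had 14, 15 and 11 of its 15 genes higher in fMaSC. Atp5b, the catalytic β subunit of F1, stood at 328 and 319 RPKM in fMaSC, 84.6 and 67.2 in basal cells, 139 and 146 in luminal progenitor cells and 157 and 98.1 in mature luminal cells. Its log2 fold changes were 2.09, 1.18 and 1.38 (limma adjusted p = 0.000408, 0.00626 and 0.00258), and fetal and adult libraries did not overlap. Atp5k stood at 19.3 and 14.5 RPKM against 0.962 and 1.47 in luminal progenitors (3.01 ± 0.27, limma adjusted p = 0.000141). The c ring turns with the proton flow, and its protein comes from 3 genes with the same mature sequence. Atp5g1 stood at 82.4 and 106 RPKM in fMaSC and between 19.8 and 28.2 in the adult libraries (log2 fold changes 1.88, 2.09 and 2.0). Atp5g2 stood at 357 and 324 RPKM in fMaSC and between 51.7 and 215 in the adult libraries. Atp5g3 was the most even of the 3 between fetal and basal cells, at 67.2 and 58.5 RPKM in fMaSC against 45.4 and 40.9 in basal cells (0.53 ± 0.18, limma adjusted p = 0.0375).

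**Figure D3:**
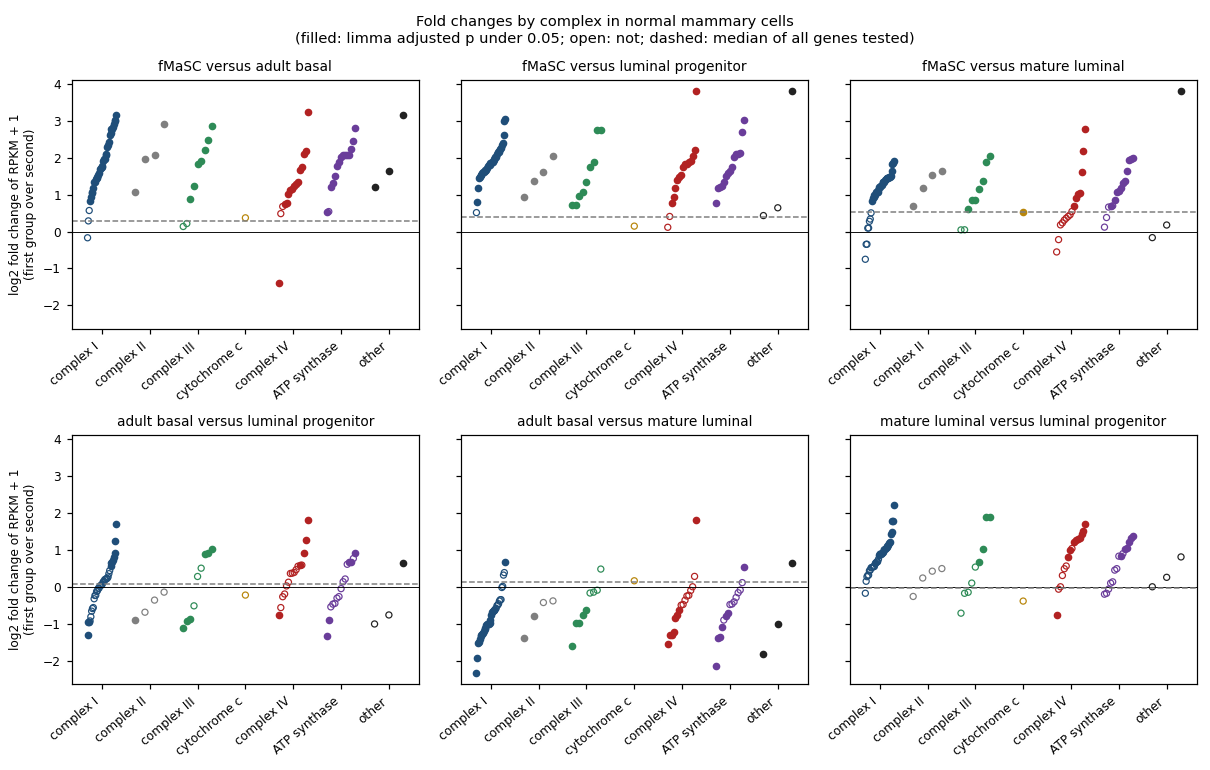
Log2 fold changes of RPKM + 1 (y axis, first group over second) for the tested genes of each complex (x axis) in the 6 normal comparisons. Filled points passed limma at an adjusted p under 0.05, open points did not, and the dashed line is the median of all genes tested, as in fMaSC against adult basal cells, where it lies at 0.27 and the 84 genes' median is 1.73.

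The tissue isoforms and name-sharing genes were low but differed between populations. Ndufa4l2, a paralog of Ndufa4 that is induced by low oxygen in several cell types, stood at 12.2 and 13.8 RPKM in fMaSC and 0.654 and 0.453 in basal cells, and was listed at 0 in the 4 luminal libraries. The log2 difference from basal cells was 3.17 ± 0.18 (limma adjusted p = 3.23e-05). Its exons overlap those of Shmt2 and the libraries mark no strand. Shmt2 stood at 39.2 and 54.2 RPKM in fMaSC, 17.7 and 25.5 in basal cells, and 17.5 and 18.2 in luminal progenitors, where Ndufa4l2 was listed at 0. The part of the overlap in the result was not tested. Cox6b2, the testis isoform of subunit 6B, stood at 26.7 and 20.5 RPKM in fMaSC, 5.59 and 0 in basal cells, 1.07 and 0.468 in luminal progenitor cells and 2.65 and 2.51 in mature luminal cells. Its log2 fold changes were 3.25, 3.81 and 2.77 (limma adjusted p = 0.00803, 0.00499 and 0.0168). Cox4i2, the isoform of lung and of low oxygen, stood at 2.93 and 4.22 RPKM in fMaSC and 0.594 and 0.841 in luminal progenitors (1.40 ± 0.20, limma adjusted p = 0.00102), and was listed at 0 in the other 4 adult libraries.

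Cox6a2, the heart and skeletal muscle isoform of subunit 6A, was the 1 gene lower in fMaSC. It stood at 2.48 and 2.49 RPKM in basal cells, 0.204 and 0.466 in fMaSC, and was listed at 0 in all 4 luminal libraries (-1.39 ± 0.17 for fMaSC against basal cells, limma adjusted p = 0.000418). Cox6a1, its partner, stood at 241 and 198 RPKM in basal cells, so the muscle isoform was a small part of subunit 6A transcript. Of 14 skeletal muscle markers, 8 were listed at 0 in both basal libraries, 1 reached 1 RPKM in either, and their summed level was 2.11 and 2.71 RPKM in basal cells against 0.673 and 4.07 in fMaSC. Cox7a1, the muscle isoform of subunit 7A, stood at 3.18 and 2.43 RPKM in fMaSC and 0 to 1.26 in the adult libraries. Cox7b2, Cox8b and Cox8c stayed below 1 RPKM in every normal library and were not tested.

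Other mitochondrial genes were counted from lists by role. In the 3 fetal comparisons 36.9%, 35.5% and 41.7% of all genes tested were higher, and 23.4%, 15% and 14.7% lower. Of 77 tested genes of mitochondrial ribosomal proteins, 69, 62 and 68 were higher in fMaSC than in basal, luminal progenitor and mature luminal cells, and 0, 1 and 0 were lower. Mrpl2, of the large mitochondrial subunit, stood at 74.0 ± 6.8 RPKM (SD, n = 2) in fMaSC against 1.24 ± 1.76 in basal cells. Of 19 genes of the citric acid cycle and pyruvate dehydrogenase, 15, 14 and 16 were higher and 0 lower. Idh2, the mitochondrial NADP isocitrate dehydrogenase, stood at 172 ± 10 RPKM in fMaSC against 8.98 ± 7.24 in basal cells. Of 49 assembly factors, 37, 32 and 29 were higher and 3, 0 and 2 lower. Slc25a4, which exchanges ADP and ATP across the inner membrane, stood at 729 and 706 RPKM in fMaSC and between 61.6 and 144 in the adult libraries.

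Of 21 regulators of mitochondrial biogenesis, 7, 4 and 5 were higher and 4, 2 and 3 lower, shares near or below those of all genes (36.9%, 35.5% and 41.7% higher, and 23.4%, 15% and 14.7% lower). Ppargc1a, the coactivator PGC-1α, stood at 5.22 and 5.26 RPKM in fMaSC and between 0.195 and 1.83 in the adult libraries. Nrf1, given here because its motif was searched, stood at 17.1 and 16.3 RPKM in fMaSC and between 4.69 and 14.1 in the adult libraries. Yy1, the factor of the YY1 motif, stood at 48.1 and 60.5 RPKM in basal cells and at 12.6 to 19.4 in the other 6 libraries, and was lower in fMaSC than in basal cells (-1.71 ± 0.21, limma adjusted p = 0.0005). Of 85 cytosolic ribosomal protein genes, which lie outside mitochondria, 26, 34 and 21 were higher in fMaSC and 0, 0 and 1 lower, where 36.9%, 35.5% and 41.7% of all genes were higher.

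Markers of other cell types also differed between fetal and adult libraries. The summed level of 6 red cell markers was 260 and 333 RPKM in fMaSC and 0 to 9.40 in the adult libraries. For 8 fibroblast markers it was 83.3 and 99.8 RPKM in fMaSC, 54.9 and 58.5 in basal cells and 7.37 to 25.5 in the luminal libraries. For 7 white fat markers it was 209 and 233 RPKM in fMaSC, 70.2 and 234 in basal cells and 8.52 to 51.2 in the luminal libraries. All 7 white fat markers reached 1 RPKM in fMaSC, and 2 of the 7 in each adult population. For 5 brown fat markers, a fat rich in respiratory genes, it was 0.748 and 1.82 RPKM in fMaSC against 2.92 to 34.2 in the adult libraries. Of these 5, 1 reached 1 RPKM in fMaSC and 1 in each luminal population, where 3 of the 5 were listed at 0, so the luminal sums rest on a single gene, Cidea. For 10 immune markers the sum was 16.4 and 17.2 RPKM in fMaSC, 25.8 and 137 in basal cells and 13.2 to 19.5 in the luminal libraries. For 7 endothelial markers it was 21.7 and 28.2 RPKM in fMaSC, 10.0 and 24.6 in basal cells and 4.32 to 12.8 in the luminal libraries. The part of these other cells in the results was not tested.

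Mature luminal cells held more of these transcripts than luminal progenitors. Of 84 genes 36 were higher and 1 lower, where 8.63% of all genes tested were higher and 13.4% lower, and the medians were 0.71 and -0.04. The counts by role differed: 9 of 11 widely expressed complex IV genes, 4 of 5 small complex III genes and 17 of 29 accessory complex I genes were higher, against 0 of 7 core complex I genes, 0 of 4 complex II genes and 1 of 5 F1 genes. The difference between these roles was not tested. Ndufa7 stood at 217 and 204 RPKM in mature luminal cells and 46.1 and 43.6 in luminal progenitors (2.21 ± 0.33, limma adjusted p = 0.00448). Uqcr10, a small complex III subunit, stood at 169 and 187 RPKM against 44.0 and 50.8 (1.89 ± 0.19, limma adjusted p = 0.00124), and Uqcr11 at 67.4 and 92.1 against 20.7 and 20.2 (1.90 ± 0.20, 0.00147).

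Ndufa13, an accessory subunit also known as Grim19, stood at 372 and 481 RPKM in mature luminal cells against 117 and 128 in luminal progenitors (1.78 ± 0.25, limma adjusted p = 0.00383). Ndufb11 stood at 288 and 357 RPKM against 99.8 and 86.2 (1.78 ± 0.19, limma adjusted p = 0.00155). In all 5 of these genes the mature luminal libraries were above both progenitor libraries and above both basal ones. The 5 were picked for large called changes from luminal progenitors, so their distance from the progenitor libraries is no separate support. Core and catalytic genes lay closer: Ndufs1 differed by 0.15, Sdha by 0.24 and Atp5b by -0.20, none past the threshold. Cox4i2, listed at 0 in mature luminal cells, was the 1 gene lower (limma adjusted p = 0.0311).

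The genes higher in mature luminal cells were short, with a median longest transcript of 681 bases, beside 875 for all 87 and 3122 for expressed genes. Over all genes, those higher in mature luminal cells had a median of 3241 bases and those lower 3096.5. The part of length was not tested. The count of calls in either direction was 37 (all genes 22.1%), and each of the 4 libraries mattered to it: it was 18 and 19 without luminal progenitor replicates 1 and 2, and 23 and 13 without mature luminal replicates 1 and 2. Of 77 mitochondrial ribosomal protein genes 3 were higher and 3 lower (all genes 8.63% and 13.4%).

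Basal cells had lower levels than mature luminal cells in all complexes. Of 84 genes 45 were lower and 4 higher (all genes 19.8% lower and 28.8% higher), with medians of -0.64 and 0.12. The 45 lower genes had a median longest transcript of 983 bases. Over all genes, those lower in basal cells had a median of 2420.5 bases and those higher 3949. The part of length was not tested. By complex, 23 of 36 complex I genes, 2 of 4 complex II, 5 of 9 complex III, 7 of 16 complex IV and 6 of 15 ATP synthase genes were lower. Ndufa7 stood at 60.5 and 27.6 RPKM in basal cells against the 217 and 204 above (-2.34 ± 0.33, limma adjusted p = 0.0014). Atp5c1, the central shaft of F1, stood at 41.7 and 22.9 RPKM in basal, 166 and 120 in mature luminal and 73.0 and 85.2 in luminal progenitor cells. It was lower in basal cells by 2.15 and 1.32 on the log2 scale (-2.15 and -1.32, limma adjusted p = 0.00134 and 0.0137). Ndufs8 was lower by 1.93 (-1.93 ± 0.48, limma adjusted p = 0.0135). The 4 genes higher in basal cells were Ndufa1 (0.67), Atp5g3 (0.55) and, both listed at 0 in mature luminal cells, Cox6a2 and Ndufa4l2. Without mature luminal replicate 1 the count of calls in either direction fell from 49 (all genes 48.6%) to 26.

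Against luminal progenitors the basal cells were mixed. Of 84 genes 18 were higher and 10 lower (all genes 21% and 14.5%), close to the shares of all genes, with medians of 0.06 and 0.08. The direction rested on scaling, with 15 higher and 17 lower after quantile normalization (all genes 17.5% and 19.1%). With size factors it was 14 and 14 (all genes 19.7% and 16.3%). The higher genes included 7 of 29 accessory complex I genes and 3 of 5 small complex III genes. Ndufa1 stood at 35.2 and 34.3 RPKM in basal cells against 11.6 and 8.45 in luminal progenitors (1.71 ± 0.20, limma adjusted p = 0.00114), and Cox6c at 600.0 and 825 against 265 and 318 (1.27 ± 0.27, 0.0101). Uqcrq, a small complex III subunit, stood at 147 and 186 RPKM against 80.4 and 82.4 (1.01 ± 0.18, limma adjusted p = 0.00575), and Ndufa5 at 29.5 and 57.8 against 16.4 and 17.6 (1.23 ± 0.32, 0.0221).

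The lower genes included 1 of 7 core and 2 of 29 accessory complex I genes and 2 of 5 F1 genes, while 1 F1 gene was higher. The difference between roles was not tested. Uqcrc1 was lower in basal cells by 1.12 (-1.12 ± 0.21, limma adjusted p = 0.00649) and Ndufa10 by 1.31 (-1.31 ± 0.23, 0.00497). Ndufv1, which binds NADH, stood at 23.8 and 25.2 RPKM in basal cells against 51.1 and 45.2 (-0.94 ± 0.21, limma adjusted p = 0.014). Ndufa9, like Ndufa10 an accessory subunit, stood at 23.5 and 26.7 RPKM against 50.9 and 48.8 (-0.97 ± 0.21, limma adjusted p = 0.0122). The 18 higher genes had a median longest transcript of 701.5 bases and the 10 lower ones 1698, while over all genes the higher ones were longer (4292 against 2302), and the part of length was not tested. In the same comparison 21 of 77 mitochondrial ribosomal protein genes were lower and 2 higher (all genes 14.5% and 21%). Without luminal progenitor replicates 1 and 2 the calls in either direction fell from 28 (all genes 35.5%) to 9 and 13.

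In PY230 tumours, luminal SOX10 high and low cells differed in few of these genes. Limma was fitted over 13136 genes, of which 81 belong to the respiratory chain or ATP synthase. Of the 81, 2 were higher and 3 lower in SOX10 high cells, below the 12.6% and 10% of all genes, and both medians were 0.01. With quantile normalization the split was 5 and 2 (all genes 11.6% and 11.2%). Cox6b2 stood at 0.619 and 1.60 RPKM in luminal SOX10 high and 5.67 and 8.55 in luminal SOX10 low cells (-1.96 ± 0.29, limma adjusted p = 0.00939). Cox8b, the muscle isoform of subunit 8, stood at 5.54 and 1.79 RPKM in SOX10 high and was listed at 0 in both SOX10 low libraries (limma adjusted p = 0.0272). Ndufb6, an accessory membrane subunit, stood at 110 and 61.7 RPKM against 43.9 and 41.7 (0.93 ± 0.26, limma adjusted p = 0.0473).

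Ndufv3, an accessory subunit of the NADH-oxidising arm, stood at 89.1 and 92.7 RPKM in luminal SOX10 high and 141 and 158 in SOX10 low cells (-0.71 ± 0.17, limma adjusted p = 0.0316). Cox5a, a complex IV subunit found in most tissues, stood at 115 and 116 RPKM against 173 and 165 (-0.55 ± 0.14, limma adjusted p = 0.0378). None of these 5 genes overlapped between the groups, but they were picked by their calls, so this is no separate support. The count of 5 (all genes 22.6% in either direction) was not stable: without SOX10 high replicate 1 and without SOX10 low replicates 1 and 2 it was 1, 1 and 0, and without SOX10 high replicate 2 it was 19. Over the 6 libraries, the 14 skeletal muscle markers summed to 4.83 and 10.0 RPKM in luminal SOX10 high and 12.8 and 22.1 in SOX10 low cells, and to 5.65 and 8.95 in basal SOX10 high cells. The 10 immune markers summed to 148 and 176 RPKM in luminal SOX10 high cells and 48.0 and 76.98 in SOX10 low cells. The part of either list in the results was not tested.

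Basal SOX10 high cells had lower levels than luminal SOX10 high cells. Genes called lower came at about the rate of all genes, and genes called higher came below it. Of 81 genes 27 were lower and 1 higher, where 28.2% of all genes were lower and 13.8% higher, and the medians were -0.44 and -0.21. Size factors gave 13 lower and 3 higher (all genes 17.5% and 19%), and quantile normalization 29 and 3 (21.2% and 18%). Against luminal SOX10 low cells 36 were lower and 5 higher (all genes 33.4% and 21.8%), with medians of -0.42 and -0.16. Size factors gave 25 and 9 (all genes 25.3% and 28.6%), and quantile normalization 32 and 8 (29.3% and 25.6%). Both comparisons share the basal libraries. Over all genes, those lower in basal SOX10 high cells had median longest transcripts of 2792 and 2800.5 bases. Those higher had medians of 3651.5 and 3632. The part of length was not tested.

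Cox7a1 showed the widest gap. It stood at 1.06 and 1.39 RPKM in basal SOX10 high, 18.3 and 9.80 in luminal SOX10 high and 9.04 and 12.8 in luminal SOX10 low cells. The log2 differences were -2.70 ± 0.30 and -2.41 ± 0.30 (limma adjusted p = 0.000791 and 0.000705). Cox7a2, its widely expressed partner, stood at 91.8 and 120 RPKM in basal cells and 146 to 176 in the 4 luminal libraries. Ndufv3 stood at 52.2 and 38.5 RPKM in basal cells, below all 4 luminal libraries (-1.0 and -1.71, limma adjusted p = 0.0045 and 0.000297). Ndufa6, an accessory subunit, stood at 51.9 and 53.7 RPKM against 104 to 132 in the luminal libraries (-1.04 and -1.31, limma adjusted p = 0.00112 and 0.00025).

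Uqcrfs1 stood at 58.3 and 50.6 RPKM in basal cells against 88.6 to 124 (-0.94 and -0.75, limma adjusted p = 0.00785 and 0.0128). Ndufa7, high in normal mature luminal cells, stood at 59.0 and 52.3 RPKM in basal and 100.3 to 149 in luminal tumour cells (-0.91 and -1.27, limma adjusted p = 0.00401 and 0.000585). Sdha stood at 47.8 and 44.2 RPKM against 67.3 to 93.9 (-0.79 and -0.58, limma adjusted p = 0.0109 and 0.0259). In these 3 genes the basal libraries were below all 4 luminal ones, which is no separate support, since all 3 were already called.

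Ndufa4l2 went the other way, at 4.93 and 9.17 RPKM in basal SOX10 high cells against 1.13 to 2.44 in the luminal libraries (1.52 and 1.49, limma adjusted p = 0.0109 and 0.00809). Shmt2, which overlaps it, was close between groups, at 28.0 and 26.7 RPKM in basal and 23.7 to 37.5 in luminal libraries. Ndufa1 stood at 126 and 120 RPKM in basal and 62.5 and 69.7 in luminal SOX10 low cells (0.89 ± 0.17, limma adjusted p = 0.00515). It was also higher in normal basal than in mature luminal cells. Of 76 mitochondrial ribosomal protein genes 37 were lower in basal than in luminal SOX10 high cells and 0 higher (all genes 28.2% and 13.8%). Slc25a4 was higher, at 277 and 276 RPKM against 121 and 140 in luminal SOX10 high cells (1.09, limma adjusted p = 0.00157). Fibroblast markers summed to 191 and 326 RPKM in basal SOX10 high, 103 and 189 in luminal SOX10 high and 65.1 and 130 in luminal SOX10 low cells, and white fat markers to 61.3 and 79.3, 17.1 and 21.9, and 27.0 and 27.3. The white fat sums in basal SOX10 high cells rest on Fabp4, at 58.1 and 76.1 RPKM. Lipe went the other way, at 3.19 and 2.84 RPKM against 9.93 to 25.7 in the luminal libraries. The other white fat markers stayed below 1 RPKM. Immune markers summed to 148 and 158 RPKM in basal SOX10 high cells, above the luminal SOX10 low cells. Their part in the results was not tested. Without basal SOX10 high replicates 1 and 2 and luminal SOX10 high replicate 1, the calls in either direction against luminal SOX10 high cells, 28 with all libraries (all genes 42%), were 8, 14 and 17, and without luminal SOX10 high replicate 2 they were 50. Against luminal SOX10 low cells they were 25 and 19 without SOX10 low replicates 1 and 2, and 22 without basal replicate 1, from 41 (all genes 55.2%).

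**Figure D4:**
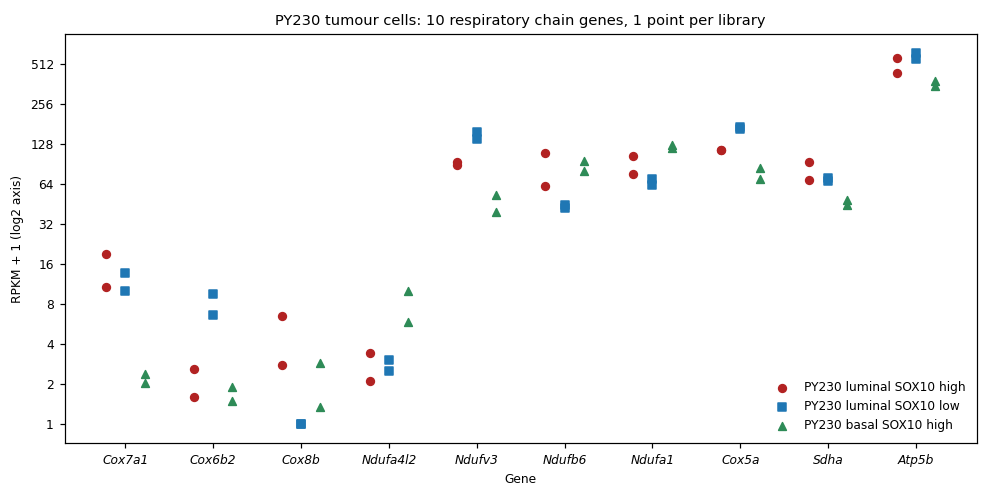
RPKM + 1 on a log2 axis (y) of 10 genes (x) in the 6 PY230 libraries, 1 point per library. The basal SOX10 high triangles lie below the luminal points for Cox7a1, at 1.06 and 1.39 RPKM, and above them for Ndufa4l2, at 4.93 and 9.17 RPKM.

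In C3-1-TAg tumours no gene of the respiratory chain or ATP synthase was called between SOX10 high and SOX10 low cells. Limma called 0 of 79 tested genes, and 0 of the 79 had an unadjusted p under 0.05. Of all 11948 genes tested, 0.0418% were called higher and 0% lower, and 365 (3.05%) had an unadjusted p under 0.05. In an exact two-sided permutation test per gene over the 9 libraries, which can reach 0.00794, the smallest unadjusted p of a gene was 0.0794. The median log2 difference of the 79 genes was 0.02, with a range from -0.57 to 0.44. The spread was wider than elsewhere: the median residual SD over genes was 0.39, against 0.27 in normal and 0.17 in PY230 cells, and a p that misses the threshold does not show equal levels.

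Levels in C3-1-TAg cells varied between the libraries of both groups. Sdha stood at 27.7, 30.7, 32.8, 37.6 and 37.9 RPKM in SOX10 high and 30.2, 33.0, 34.4 and 36.7 in SOX10 low libraries. Atp5b stood at 258 to 406 RPKM (median 325) in SOX10 high and 274 to 436 in SOX10 low libraries. Cox6b2 ran from 0.088 to 13.1 RPKM in SOX10 high and from 0.429 to 13.4 in SOX10 low libraries. Cox7a1 stood at 0.803 to 7.30 RPKM in SOX10 high and 0.820 to 3.06 in SOX10 low libraries. In each of these 4 genes the 2 groups overlapped. Markers of other cell types also varied: the 10 immune markers summed to 3003 RPKM in SOX10 low 1 and to 10.2 to 134 in the other 8 libraries. The 8 fibroblast markers ran from 4.45 to 367 RPKM in SOX10 high and from 7.32 to 399 in SOX10 low libraries, with the highest again in SOX10 low 1. Without that library limma called 0 of the genes, and the part of the other cells was not otherwise tested.

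Libraries SOX10 high 1 and SOX10 low 2 were more alike in these genes than any other of the 36 pairs. Their median absolute difference over the 79 genes was 0.0803 on the log2 scale, against 0.199 for the next pair, SOX10 high 4 and 5, and a median of 0.337 over the 20 pairs between groups. Ndufb8, an accessory subunit of complex I chosen here after its values were seen, stood at 285.1 and 285.5 RPKM in these 2 libraries and at 58.9 to 116 in the other 7. Both libraries also held Met at 2126 and 2143 RPKM, against 9.54 to 22.4 in the other 7. Over all genes tested, the most alike pairs were this one (median absolute difference 0.128) and SOX10 high 2 with SOX10 low 3 (0.174), ahead of the closest pair within a group (0.266). In the respiratory genes SOX10 high 2 and SOX10 low 3 differed by a median of 0.298, and none of the 79 differed 2-fold in either pair. The labels put the libraries of each pair in different groups and say nothing of a shared tumour, and the fit compared them as unpaired. Limma called 0 of the genes without the first pair, and 0 of 77 without the 4 libraries of both pairs.

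**Figure D5:**
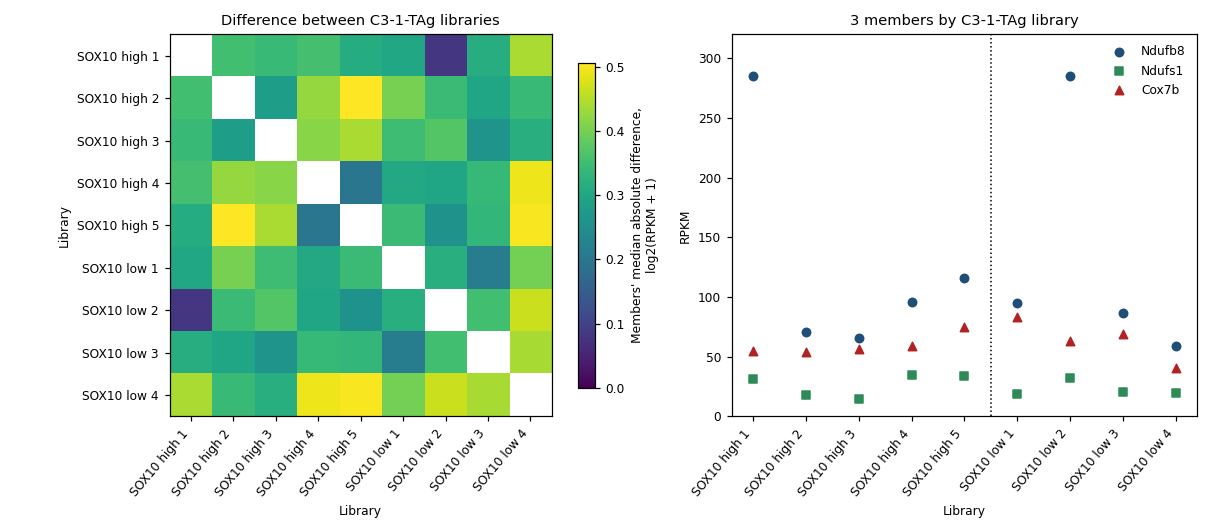
Left, the median absolute difference of the tested genes on log2(RPKM + 1) between each pair of the 9 C3-1-TAg libraries (colour); the darkest square, 0.0803, is SOX10 high 1 with SOX10 low 2. Right, RPKM (y axis) of Ndufb8, Ndufs1 and Cox7b in each library (x axis), with Ndufb8 at 285.1 and 285.5 in those 2 libraries.

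Some genes differed between the tables so widely that their levels in a table deserve care. Cycs ran from 244 to 370 RPKM in normal libraries and from 0.256 to 1.08 in the PY230 and C3-1-TAg libraries. Atp5g2 ran from 51.7 to 357 RPKM in normal and 0 to 1.49 in tumour libraries, and Ndufab1, the acyl carrier subunit of complex I, from 36.7 to 169 and from 1.68 to 5.10. Cox7c ran from 81.7 to 278 RPKM in normal libraries and from 0.551 to 4.48 in tumour libraries. Ndufv3 and Atp5k went the other way, at 0.395 to 4.55 and 0.962 to 19.3 RPKM in normal libraries and 23.1 to 158 and 75.2 to 218 in tumour libraries. The gene annotation and the handling of reads shared with near-identical copies are unknown from the sources at hand, the strains and tables change together, and the reason was not tested. Of the 87 genes, 18 overlap an exon of another coding gene in GENCODE on GRCm38. Those described above are Ndufa4l2, Cox6a2, Ndufa3, Ndufa13, Ndufb6, Ndufb8 and Ndufb11, and the libraries mark no strand. The part of the overlaps in their results was not tested.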

How the data were processed

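RNA was measured in 23 libraries of 9 groups. Per the submitters' processing notes, reads were aligned to mm9 with HISAT2 2.0.5, StringTie 1.3.1c was used, and FastQC is named. The authors deposited RPKM in 3 tables of 24391, 24511 and 24322 genes. In the C3-1-TAg table no value lay between 0 and 2, so 2 was taken off every value above 0, and 2200 symbols were respelled to match case. The depth per sample is unknown, so no counting interval is given. Limma 3.58.1 in R 4.3.3, with an intensity trend, was fitted to log2(RPKM + 1) of genes reaching 1 RPKM in 2 or more libraries (4 for C3-1-TAg), all groups of a table together, and tested on simulated data. P-values were Benjamini-Hochberg adjusted over all genes tested, with 0.05 as threshold. P-values measure the spread between libraries, which may be partly technical. Alternatives were a pseudocount of 0.1, no filter, quantile normalization, size factors, a replicate block and leaving out each library. The genes and lists were chosen with earlier results of these data known. Genes were named by rule: the 5 largest called changes in each direction of a comparison, the isoform pairs, 1 core gene per complex and the 2 largest called changes of each list. Sdhc, Uqcrh, Atp5g2, Ndufab1, Cox7c, Nrf1, Shmt2, Met and Ndufb8 were chosen after their values were seen.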

Additional observations from a re-analysis of the deposited data

Results flagged for a closer look

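Within the C3-1-TAg groups, 39 checks of a gene's level and 2 of the sum over the genes were made. They gave 5 values far from the rest of their group, where chance gives about 1 in 20. Both Ndufb8 values come from the pair of libraries that are alike across the groups, so they are not separate findings, and Ndufb8 was among the genes checked because its values had been seen. Ndufb8, an accessory subunit of complex I, stood at 285.1 RPKM in SOX10 high replicate 1, with 65.3 to 116 in the other 4 SOX10 high libraries. It stood at 285.5 RPKM in SOX10 low replicate 2, with 58.9 to 95.2 in the other 3 SOX10 low libraries. Ndufs1, the largest core subunit of complex I, stood at 32.4 RPKM in the same SOX10 low replicate 2, with 18.9 to 20.7 in the others. In the SOX10 high libraries Ndufs1 ran from 14.4 to 34.7 RPKM (median 31.0), so 32.4 lay within their range. Cox4i2, an isoform of complex IV, stood at 3.65 RPKM in SOX10 high replicate 4, with 0.0800 to 0.843 in the others. Cox7b, a small complex IV subunit, stood at 75.0 RPKM in SOX10 high replicate 5, with 53.8 to 59.3 in the others.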

How the results depend on the processing

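The counts of called genes in the 3 fetal comparisons stayed within 1.5 times their value under every alternative run, at 63 to 76, 67 to 76 and 39 to 48 with 1 library left out. The other counts moved with single libraries: 9 to 41 for basal against luminal progenitor cells, 26 to 57 for basal against mature luminal, 13 to 23 for mature luminal against luminal progenitor, 0 to 19 for PY230 luminal SOX10 high against low, 8 to 50 for basal against luminal SOX10 high and 19 to 28 for basal against luminal SOX10 low. Where 1 library was left in a group, it was assumed to vary like the others. The share of all genes called was not counted with a library left out, with a replicate block or without the filter. The counts of these genes in those fits therefore have no such share beside them. Between PY230 luminal SOX10 high and low cells the count was 1 without the filter on low values, and between basal and luminal SOX10 high cells 16 with size factors; the cause was not tested. In C3-1-TAg cells it was 0 under every alternative, with 0 to 0 when a library was left out. There the Sdha difference, not called, turned above 0 with size factors (0.0043) and ran from -0.0657 to 0.0441 with 1 library left out, and that of Atp5b, not called, from -0.181 to 0.0416; without the 4 libraries of the pairs alike across groups, a setting chosen after seeing the data, they were 0.0839 and 0.126.

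With the replicate number as a block the counts were 75, 78, 59, 28, 49 and 38 in the normal comparisons, 3, 23 and 39 in PY230 and 0 in C3-1-TAg cells. Same-numbered libraries did not deviate together in every comparison, so the numbers were not taken to pair them. With the luminal SOX10 low numbers crossed, a pairing chosen after seeing the data, the PY230 counts were 6, 35 and 45. Single genes moved as well. Of 140 results of a gene in a comparison, 19 lost their call with size factors and 14 without the filter on low values. Calls lost with quantile normalization were 8, with the replicate block 7 and with a pseudocount of 0.1 they were 5. Leaving out 1 library also cost calls of single genes.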
